A study of Mus musculus with 18 samples.

Results

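The genes described here write, read or remove chemical marks on chromatin or move nucleosomes. The rule that picks them uses symbols and no measured value: genes named Kdm, Dnmt, Tet, Chd, Hdac, Setd or Kmt followed by a digit, genes named Smarc, and *Ezh1*, *Ezh2*, *Eed*, *Suz12*, *Ehmt1*, *Ehmt2*, *Suv39h1*, *Suv39h2*, *Uhrf1*, and *Dot1l*. Of the 9866 genes listed in the knockdown or the overexpression expression table, 76 met this rule. The knockdown table held 75 of them among 9435 genes, the overexpression table held 74 among 9472, and 73 were in both. *Dnmt3b* and *Tet1* were listed for the knockdown libraries alone, and *Suv39h2* for the overexpression libraries alone. Another 18 symbols of the reference annotation met the rule and were in neither table, among them *Dnmt3l*, *Chd7*, and *Hdac9*.

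RNA-seq was performed on mouse embryonic fibroblasts (MEFs) from male embryos with the genotype Collagen-OKSM, M2rtta+, in which doxycycline switches on the reprogramming factors OCT4, KLF4, SOX2, and MYC. There were 9 groups of 2 libraries. In the knockdown (KD) dataset, not infected MEFs (NI) at day 0 were compared with cells that had received at day 0 a lentivirus carrying a scrambled shRNA (shSCR), 1 of 2 shRNAs against the 3′ end processing factor CPSF3 (shCPSF3#1 and shCPSF3#2), or 1 of 2 shRNAs against the RNA-binding protein hnRNP UL1 (shUL1#1 and shUL1#2), together with doxycycline and LIF, and that were collected at day 12. In the overexpression (OE) dataset, NI MEFs at day 0 were compared with day 12 cells that had received a retrovirus with no insert (Empty) or with T7-tagged TIA1 (T7-TIA1). All day 12 cells had been sorted for GFP at day 2 and grown on irradiated feeder fibroblasts, and the NI cells had not, so that reprogramming, infection, sorting, and feeder RNA cannot be told apart in a comparison of day 12 with day 0. The labels do not say whether the libraries of a group came from separate embryos or cultures, and p-values measure the spread between these libraries, which may be technical.

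DNA methyltransferases add methyl groups to cytosine and TET enzymes oxidize them, and histone methyltransferases and lysine demethylases (KDM) do the corresponding work on histone tails, where methylated H3K4 goes with active promoters and methylated H3K9 and H3K27 with silent chromatin. Histone deacetylases (HDAC) take acetyl groups off, often within complexes such as NuRD that also contain a CHD remodeller. SWI/SNF and ISWI complexes slide or evict nucleosomes, and many of these genes are known to help or hinder the return of fibroblasts to pluripotency.

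Reads on listed genes ranged from 98882289 to 109047542 per library, as derived from the step between values. Expression is given as scaled CPM, the normalised read counts of a gene relative to a library size that the authors had scaled for each library. The values of replicates 1 and 2 of a group are separated by a slash. The knocked-down genes were lower than in shSCR: *Cpsf3* was at 86.7/118 scaled CPM in shSCR and at 38.6 to 77.1 in the 4 shCPSF3 libraries (adjusted p = 0.0207), and *Hnrnpul1* was at 156/185 in shSCR and at 38.7 to 85.8 in the 4 shUL1 libraries (adjusted p = 0.0101). *Tia1* stood at 85.6/77.0 in Empty and at 613/469 in T7-TIA1. Fibroblast markers (15 of 18 listed in KD) summed to 25904 to 28174 scaled CPM in NI, 7770 to 9956 in shSCR, 18329 to 30167 with shCPSF3, and 16303 to 35066 with shUL1. In OE (14 of 18 listed) they summed to 29517 to 49004 in NI, 7487 to 8368 in Empty, and 6162 to 6498 in T7-TIA1. Macrophage markers (3 of 7 listed in KD, none in OE) summed to 9.6 to 10.6 in NI, 171 to 300.4 in shSCR, 429 to 1814 with shCPSF3, and 259 to 1000.2 with shUL1. Epidermal markers (4 listed in KD) summed to 60.4 to 81.2 in NI, 396 to 657 in shSCR, 53.2 to 268 with shCPSF3, and 104 to 296 with shUL1, and in OE (2 listed) to 21.8 to 40.1 in NI, 56.0 to 72.2 in Empty, and 73.8 to 129.8 in T7-TIA1. Of 5 endothelial markers 1 was listed in KD, Tek, at 1.2 to 1.5 in NI, 25.0 to 29.7 in shSCR, 18.3 to 63.9 with shCPSF3, and 41.9 to 142.9 with shUL1. Proliferation markers (14 of 14 listed in both) summed to 3234 to 3705 in NI, 1539.6 to 3062 in shSCR, 433 to 2680.2 with shCPSF3, and 934 to 2295 with shUL1, and ranged from 1994 to 3214 in OE. The pluripotency markers (2 of 18 listed in KD, 1 of 18 in OE) summed to 49.2 to 59.0 in NI, 77.6 to 119.6 in shSCR, 19.2 to 82.8 with shCPSF3, and 30.8 to 72.9 with shUL1, and to 26.3 to 40.5 in OE. *Pou5f1* and *Nanog*, which define pluripotent cells, were in neither table. The part of these marker levels in the differences below was not tested, and in bulk RNA fewer cells of a type and less RNA per cell cannot be told apart.

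The alternative segments to which the splicing results below return most often are shown as they stand in the GRCm38 transcripts of GENCODE, 5′ to 3′ on the minus strand of the genome. Capitals mark the segment that can be skipped, lower case the neighbouring exon bases. All 5 of these segments lie in coding sequence and have lengths divisible by 3.
*Ezh2* exon 14 of 20, 126 nt, chr6:47541845-47541970: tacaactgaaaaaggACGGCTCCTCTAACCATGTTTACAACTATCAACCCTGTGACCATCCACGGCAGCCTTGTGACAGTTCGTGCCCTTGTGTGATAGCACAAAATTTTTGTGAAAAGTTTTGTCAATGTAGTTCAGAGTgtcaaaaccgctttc
*Hdac7* exon 8 of 25, 111 nt, chr15:97808660-97808770: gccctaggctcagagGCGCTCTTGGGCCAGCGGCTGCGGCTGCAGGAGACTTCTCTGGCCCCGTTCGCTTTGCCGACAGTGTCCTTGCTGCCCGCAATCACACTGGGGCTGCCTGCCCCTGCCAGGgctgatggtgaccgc
*Ehmt1* exon 11 of 27, 144 nt, chr2:24840636-24840779: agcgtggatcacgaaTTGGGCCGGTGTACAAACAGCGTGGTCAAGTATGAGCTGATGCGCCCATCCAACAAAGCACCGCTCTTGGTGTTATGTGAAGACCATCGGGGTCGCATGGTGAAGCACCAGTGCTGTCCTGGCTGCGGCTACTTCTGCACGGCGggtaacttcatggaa
*Chd3* exon 33 of 40, 102 nt, chr11:69348710-69348811: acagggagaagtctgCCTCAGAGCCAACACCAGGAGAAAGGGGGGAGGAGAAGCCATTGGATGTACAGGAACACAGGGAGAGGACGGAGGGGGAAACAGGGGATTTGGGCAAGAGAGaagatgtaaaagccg
*Smarcb1* exon 2 of 9, 27 nt added by a downstream 5′ splice site, chr10:75916773-75916799: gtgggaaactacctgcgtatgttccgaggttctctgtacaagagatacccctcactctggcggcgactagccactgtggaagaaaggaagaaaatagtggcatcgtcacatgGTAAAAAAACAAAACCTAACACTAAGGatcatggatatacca

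Most chromatin genes that differed between day 12 and day 0 were higher at day 12. In shSCR against NI, 32 members rose and 10 fell among the 75 listed, 56.0% of them, at a limma adjusted p under 0.05, against 44.5% of all 9435 genes (22.5% higher and 22% lower). The median log2 difference of the members, on the log2(scaled CPM + 1) scale used throughout, was 0.51, against 0.00 over all genes. Without the genes under 5 scaled CPM in both NI libraries, which the KD table lists only through their day 12 libraries and which therefore had to be higher there (*Dnmt3b* among the members, 199 in all), 31 members rose and 10 fell (55.4% of 74, against 43.5% of all genes). In Empty against NI, 41 rose and 7 fell among 74 members, where 46.5% of all 9472 genes passed (22.8% higher and 23.6% lower), and the median was 0.53 against 0.01. With libraries rescaled to equal sums, which moves the median of all genes up by 0.13 in KD and 0.19 in OE, 32 members rose and 6 fell in KD (61.4% of all calls were then higher, against 50.6%) and 47 rose and 6 fell in OE (66.9% against 49.2%). Leaving out Empty replicate 1 or 2 left 25 or 29 members called.

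**Figure D1:**
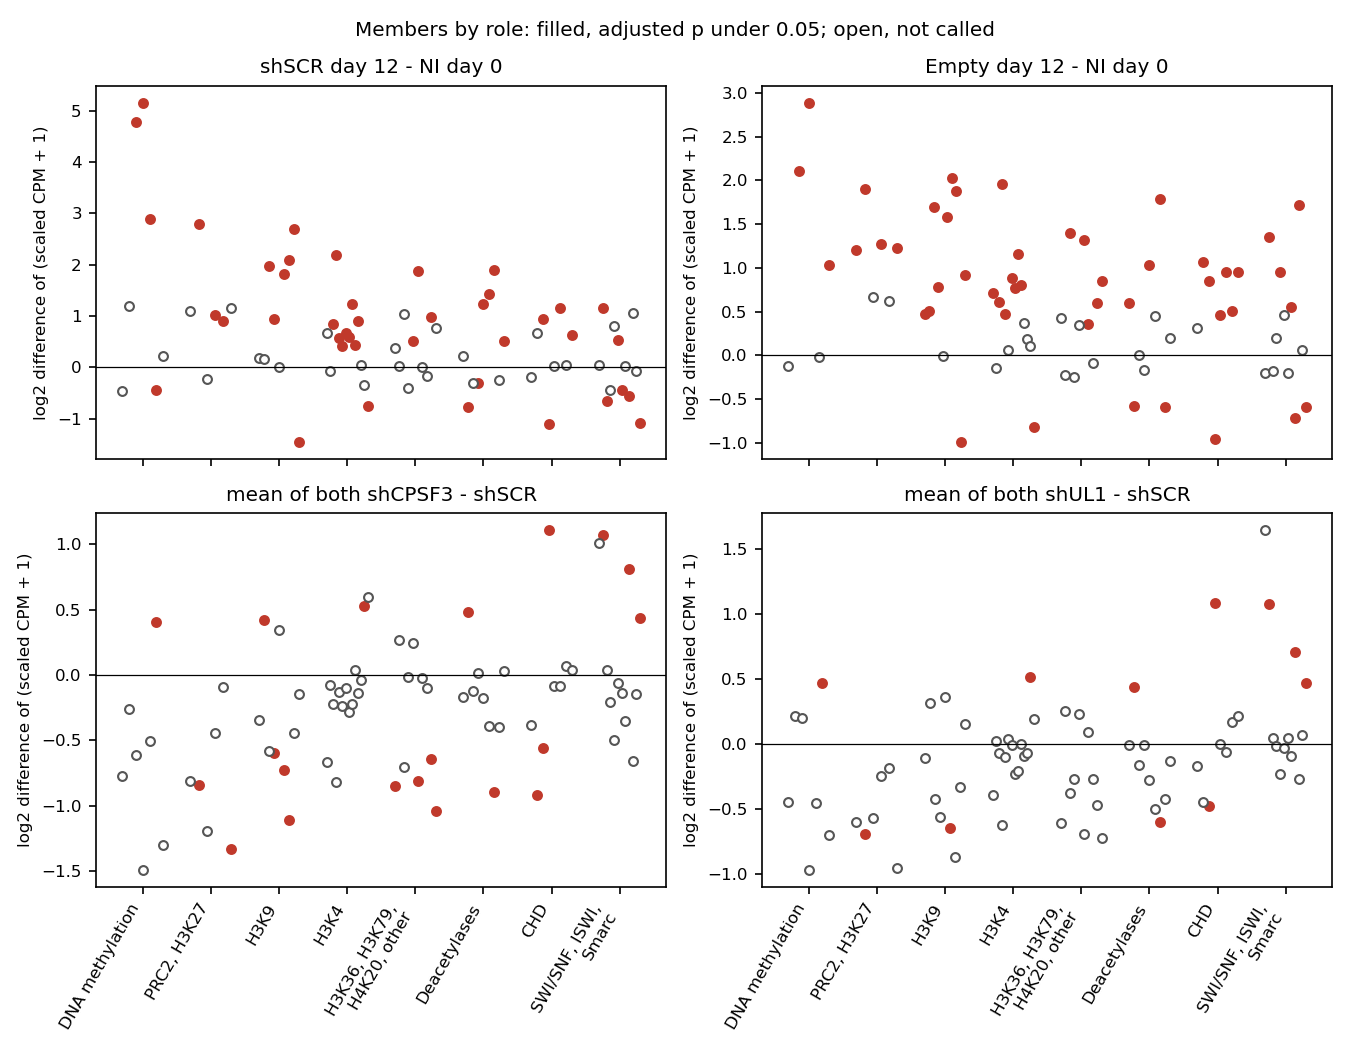
Log2 difference of (scaled CPM + 1) on the y axis for each listed chromatin gene (1 point per gene), by role on the x axis, for shSCR and Empty against NI (upper panels) and for shCPSF3 and shUL1 against shSCR (lower panels), filled where the adjusted p was under 0.05. In the upper panels 32 of 42 and 41 of 48 filled points lie above 0, and in the lower panels 8 of 20 and 7 of 11.

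The KD and OE datasets share no library, so their day 12 differences can be set against each other. Of the 73 members in both, 63 (86.3%) had the same sign in shSCR against NI and Empty against NI, as did 80.6% of all genes listed in both. Across these genes, which are not independent replicates, the log2 differences had a Pearson r of 0.911 and a Spearman rho of 0.902 for the members and a Pearson r of 0.846 for all genes. A total of 29 members passed in both, 23 higher, 6 lower, and 0 in opposite directions, which is 72.5% of those called in shSCR and 61.7% of those called in Empty. For all genes these shares were 65.4% and 61.2%. *Chd3*, *Hdac10*, *Setd7*, *Smarcc2*, *Smarce1*, and *Suv39h1* were the 6 that fell in both.

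**Figure D2:**
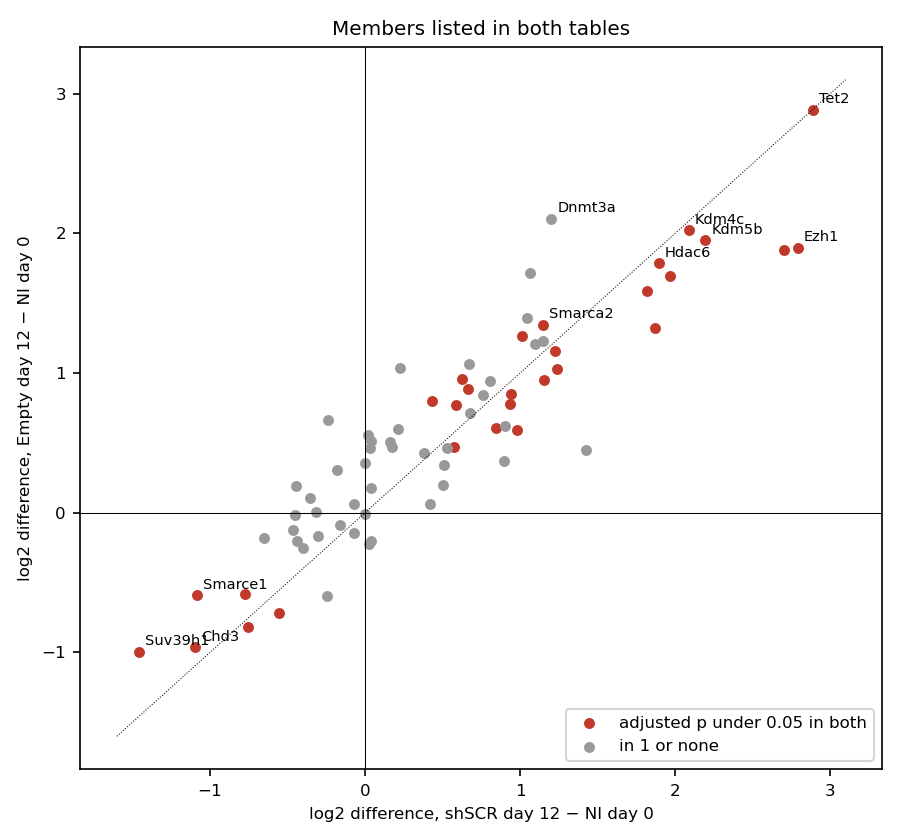
Log2 difference at day 12 against day 0 for the 73 chromatin genes in both tables, shSCR against NI on the x axis and Empty against NI on the y axis, 1 point per gene, red where it passed in both, with a dotted line of equality. The points lie along the diagonal, with 63 of 73 in the quadrants of equal sign.

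The calls by role below are those of the fit without a replicate block, unless stated. With the replicate number as a block, *Chd1l*, *Dnmt1*, *Dnmt3a*, *Eed*, *Kdm1a*, *Kdm2b*, *Setd1b*, *Setd6*, *Smarcad1*, *Smarcd1*, and *Suz12* also passed in shSCR against NI. Of the 6 DNA methylation genes in KD other than *Dnmt3b* 2 rose and 1 fell, and of the 5 in OE 3 rose. The rises were those of *Tet1*, with the limit of its listing given below, and *Tet2* in KD, and of *Tet2*, *Dnmt3a*, and *Uhrf1* in OE. TET1 and TET2 are dioxygenases of methylated cytosine, and DNMT3A and DNMT3B methylate unmethylated DNA. *Tet1* was at 4.90/5.26 scaled CPM in the NI libraries and at 137/335 in shSCR (log2 difference 5.15 ± 0.90 SE, adjusted p = 0.00251). *Dnmt3b* was at 4.45/4.31 in NI and 103/208 in shSCR. Both were low at day 0, and their shSCR libraries lay far above NI with replicate 2 well above replicate 1. Because the KD table lists genes at 5 scaled CPM or more in at least 9 of 12 libraries, the direction for *Dnmt3b* was fixed by its listing, and it is given as values with no test. *Tet1* was under 5 in NI replicate 1 and just above it in NI replicate 2. Its listing thus rested mainly on its day 12 libraries, which favours a rise, and its call and p-value carry this limit. *Tet2* rose in both datasets, from 10.4/12.2 to 67.0/120.2 in shSCR (log2 difference 2.89 ± 0.43 SE, adjusted p = 0.00128) and from 10.3/17.3 to 117/95.3 in Empty (log2 difference 2.89 ± 0.24 SE, adjusted p = 0.00128). *Dnmt3a* rose in OE, from 24.2/49.98 to 153/154 (log2 difference 2.11 ± 0.32 SE, adjusted p = 0.00493). In KD it stood at 40.1/42.6 in NI and 79.8/116 in shSCR, which did not pass (adjusted p = 0.0617). *Tet3* moved the other way in KD, from 43.0/44.0 to 32.2/31.0 (log2 difference -0.45 ± 0.10 SE, adjusted p = 0.00795), and its OE libraries overlapped (adjusted p = 0.945).

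The maintenance pair behaved less uniformly. *Dnmt1*, which copies methylation after replication, was at 269/312 in NI and 176/251 in shSCR, and at 281/209 in NI and 227/218 in Empty, and passed in neither without the replicate block (adjusted p = 0.318 and 0.560). *Uhrf1*, which brings DNMT1 to hemimethylated DNA, rose in OE from 168/119.9 to 308/277 (log2 difference 1.03 ± 0.18 SE, adjusted p = 0.00722). In KD its NI libraries were at 173/213 and its shSCR libraries at 169/299 (adjusted p = 0.829). Under the knockdowns the pair spread widely. *Dnmt1* was at 81.4/104 in shCPSF3#1, 120.2/218 in shCPSF3#2, 118/187 in shUL1#1, and 133/190.3 in shUL1#2. *Uhrf1* was at 34.5/82.6, 82.4/285, 78.1/228, and 94.4/214 in the same order, with replicate 2 the higher in each group. Neither passed against shSCR in the fit without the replicate block. *Tet1* had one of the widest spreads, at 24.6/72.2 in shCPSF3#1, 75.1/243 in shCPSF3#2, 50.7/203 in shUL1#1, and 70.3/197 in shUL1#2, without passing (adjusted p = 0.178 for CPSF3 and 0.440 for hnRNP UL1). The like held for *Dnmt3b*, at 26.7/97.7, 73.1/430.2, 85.5/383, and 89.3/273 (adjusted p = 0.631 and 0.905). Of the role's 7 members, *Tet3* alone passed in the knockdown comparisons without the replicate block. With it, *Dnmt1*, *Tet1*, *Tet2*, *Tet3*, and *Uhrf1* passed for CPSF3, and *Dnmt1*, *Tet2*, and *Tet3* for hnRNP UL1.

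Polycomb repressive complex 2 (PRC2) methylates H3K27 through EZH1 or EZH2 with the core subunits EED and SUZ12, and KDM6A and KDM6B remove the mark. *Ezh1* rose at day 12, from 11.2/13.0 to 93.7/84.8 in KD (log2 difference 2.79 ± 0.16 SE, adjusted p = 3.31e-05) and from 15.1/20.3 to 73.6/62.8 in OE (log2 difference 1.90 ± 0.17 SE, adjusted p = 0.00140). *Ezh2*, its homologue of dividing cells, passed in neither: it was at 94.9/96.4 in NI and 57.1/115 in shSCR, and at 89.4/53.1 in NI and 120.4/100.3 in Empty (adjusted p = 0.784 and 0.0778). *Eed* (1.21 ± 0.18) and *Suz12* (1.23 ± 0.15, log2 ± SE) rose in OE. In KD they missed the threshold (adjusted p = 0.0787 and 0.0515), and both passed with the replicate block. *Kdm6a* rose in both (1.01 ± 0.25 and 1.27 ± 0.10). *Kdm6b*, whose product opens H3K27-methylated genes, was at 38.6/37.7 in NI and 78.9/66.1 in shSCR (log2 difference 0.90 ± 0.13 SE, adjusted p = 0.00117), and in OE at 37.4/61.6 in NI and 72.5/76.6 in Empty (adjusted p = 0.0739). None of the 6 fell in either dataset. With the replicate block *Kdm6b* passed in Empty against NI, *Eed*, *Ezh2*, and *Kdm6a* passed against shSCR for CPSF3, and *Suz12* for hnRNP UL1.

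Of the H3K9 enzymes, 5 of 9 rose and 1 fell in KD and 8 of 10 rose and 1 fell in OE, with demethylases among the rises and the methyltransferase gene *Suv39h1* as the fall. *Suv39h1*, which trimethylates H3K9 in heterochromatin, went from 50.9/54.7 to 16.6/20.8 in KD (log2 difference -1.46 ± 0.22 SE, adjusted p = 0.00129) and from 50.02/37.5 to 22.0/20.4 in OE (log2 difference -0.99 ± 0.16 SE, adjusted p = 0.00630), with no overlap of libraries. Its paralogue *Suv39h2*, listed in OE alone, rose by 0.92 ± 0.15. *Kdm4c*, a demethylase of H3K9 and H3K36, was at 35.1/38.9 in NI and 164/143 in Empty (log2 difference 2.02 ± 0.12 SE, adjusted p = 8.42e-04). Its KD values were 35.1/34.8 in NI and 112/206 in shSCR (log2 difference 2.09 ± 0.40 SE, adjusted p = 0.00403). *Kdm7a* (2.7 in KD and 1.88 in OE), *Kdm3a* (1.97 and 1.69), *Kdm4b* (1.82 and 1.59), and *Kdm3b* (0.94 and 0.78) also rose in both, on the log2 scale. The H3K9 dimethylation enzymes *Ehmt1* (0.47 ± 0.10) and *Ehmt2* (0.51 ± 0.12) rose in OE, whereas in KD they did not pass (adjusted p = 0.429 and 0.324). *Kdm4a* did not pass in any comparison without the replicate block, and with it passed against shSCR for both CPSF3 and hnRNP UL1.

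H3K4 enzymes gave 9 rises and 1 fall among 14 in KD, and 8 and 1 in OE. *Kdm5b*, which demethylates H3K4, showed the widest rise, from 76.1/101 to 369/319.6 in OE (log2 difference 1.95 ± 0.16 SE, adjusted p = 0.00128) and from 63.4/66.2 to 240.1/375 in KD (log2 difference 2.19 ± 0.41 SE, adjusted p = 0.00354). The large MLL-type methyltransferase genes *Kmt2a*, *Kmt2b*, *Kmt2c*, and *Kmt2d* rose in both datasets, by 0.43 (*Kmt2d*) to 1.23 (*Kmt2c*) in KD and 0.77 (*Kmt2b*) to 1.16 (*Kmt2c*) in OE. *Kdm5a* and *Kdm5c* rose in both, and *Kmt2e* (0.90) and *Kdm5d* (0.42) in KD. *Kdm5c* and *Kdm5d* are homologues on the X and the Y chromosome, so that reads could be split between them. The H3K4 monomethyltransferase gene *Setd7* was the one that fell, from 146/139 to 93.2/75.6 in KD (log2 difference -0.75 ± 0.24 SE, adjusted p = 0.0359) and from 141/155 to 82.7/84.0 in OE (log2 difference -0.82 ± 0.10 SE, adjusted p = 0.00275). *Kdm1a* (LSD1), a demethylase of the CoREST complex, rose in OE from 125/129.5 to 222/197 (log2 difference 0.71 ± 0.10 SE, adjusted p = 0.00452), and stood in KD at 114/126 in NI and 161/229.9 in shSCR (adjusted p = 0.0986). *Setd1a*, *Setd1b*, and *Kdm1b* passed in neither dataset without the replicate block.

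Of the 10 enzymes of H3K36, H3K79, and H4K20 with the other Setd genes, 3 rose in KD and 5 in OE, and none fell. *Kmt5c*, which trimethylates H4K20, rose in both (1.87 ± 0.29 in KD and 1.32 ± 0.19 in OE), as did *Setd5* (0.98 ± 0.15 and 0.59 ± 0.16). *Kmt5b*, an H4K20 methyltransferase as well, rose in KD (0.51 ± 0.11). *Kdm2b* (1.39 ± 0.11), an H3K36 demethylase that recruits Polycomb to CpG islands, *Setd2* (0.35 ± 0.11, and adjusted p = 0.0703 with the replicate block), which trimethylates H3K36, and *Setd6* (0.84 ± 0.12) rose in OE. *Dot1l*, the H3K79 methyltransferase gene, and *Kdm2a*, *Kmt5a*, and *Setd3* passed in neither.

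Of the 9 deacetylases, 4 rose and 2 fell in KD, and 3 rose and 2 fell in OE. *Hdac6*, a cytoplasmic deacetylase of tubulin, rose from 33.6/33.6 to 128/127 in KD (log2 difference 1.90 ± 0.17 SE, adjusted p = 1.32e-04) and by 1.79 ± 0.14 in OE. *Hdac4*, a class IIa enzyme, rose in both (1.24 and 1.03), and *Hdac5* (1.42) and *Hdac8* (0.50) rose in KD. *Hdac10*, known as a polyamine deacetylase, fell from 20.7/20.6 to 11.6/11.7 in KD (log2 difference -0.78 ± 0.11 SE, adjusted p = 9.66e-04) and with a log2 difference of -0.58 ± 0.11 in OE. *Hdac1*, a catalytic subunit of NuRD, Sin3, and CoREST, was at 178/173 in NI and 267/267 in Empty (log2 difference 0.60 ± 0.09 SE, adjusted p = 0.00516). In KD, *Hdac1* did not pass, with 156/176 in NI and 152/242 in shSCR (adjusted p = 0.644). Its paralogue *Hdac2* was at 215/210.4 in NI and 147/199 in shSCR, and at 202/194 in NI and 193/203 in Empty (adjusted p = 0.276 and 0.978). *Hdac3*, the enzyme of the NCoR complex, fell in KD (-0.30 ± 0.10), and *Hdac7* fell in OE (-0.60 ± 0.15).

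Of the 8 CHD remodellers, 3 rose and 1 fell in KD and 6 rose and 1 fell in OE, and the NuRD ATPase genes *Chd3* and *Chd4* were not alike. *Chd3* went from 202/234 in NI to 110.1/92.5 in shSCR (log2 difference -1.10 ± 0.30 SE, adjusted p = 0.0194) and from 238/368 to 146/157 in OE (log2 difference -0.96 ± 0.21 SE, adjusted p = 0.0152). *Chd4* rose in OE from 369.9/398 to 515/544 (log2 difference 0.46 ± 0.11 SE, adjusted p = 0.0174), whereas its KD libraries, at 349/425 in NI and 361/428 in shSCR, overlapped (adjusted p = 0.917). *Chd2* (0.94 in KD and 0.85 in OE), *Chd6* (1.15 and 0.95), and *Chd9* (0.62 and 0.96) rose in both. *Chd1l* (1.07) and *Chd8* (0.51) rose in OE. *Chd1*, which binds methylated H3K4, passed in neither.

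SWI/SNF genes were the role with the most falls in KD: of the 12 Smarc genes, 2 rose and 4 fell, and in OE 4 rose and 2 fell. *Smarca2* (BRM) and *Smarca4* (BRG1), the alternative ATPases of the complex, moved apart. *Smarca2* rose from 23.9/32.3 to 68.2/57.7 in KD (log2 difference 1.15 ± 0.21 SE, adjusted p = 0.00354) and from 27.2/61.0 to 98.8/113 in OE (log2 difference 1.35 ± 0.36 SE, adjusted p = 0.0270). *Smarca4* fell in KD from 266/289 to 153/203 (log2 difference -0.65 ± 0.19 SE, adjusted p = 0.0220), and in OE it was at 285/254 in NI and 236/239 in Empty (adjusted p = 0.219). The core subunit gene *Smarce1* fell from 165/176 to 72.9/87.2 in KD (log2 difference -1.09 ± 0.12 SE, adjusted p = 2.80e-04) and with a log2 difference of -0.59 ± 0.11 in OE. *Smarcc2* (BAF170) fell in both (-0.56 ± 0.19 in KD; 138/191 in NI and 101/95.6 in Empty, log2 difference -0.72 ± 0.17 SE, adjusted p = 0.0186), while its paralogue *Smarcc1* (BAF155), the form of pluripotent cells, rose in OE (0.55 ± 0.11). *Smarcb1* fell in KD (-0.44 ± 0.15), *Smarcal1*, a helicase of stalled replication forks, rose there (0.53 ± 0.18), and *Smarcd1* (1.71 ± 0.10) and *Smarcad1* (0.95 ± 0.11) rose in OE. The ISWI ATPase genes *Smarca1* and *Smarca5*, and *Smarcd2*, passed in neither.

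**Figure D3:**
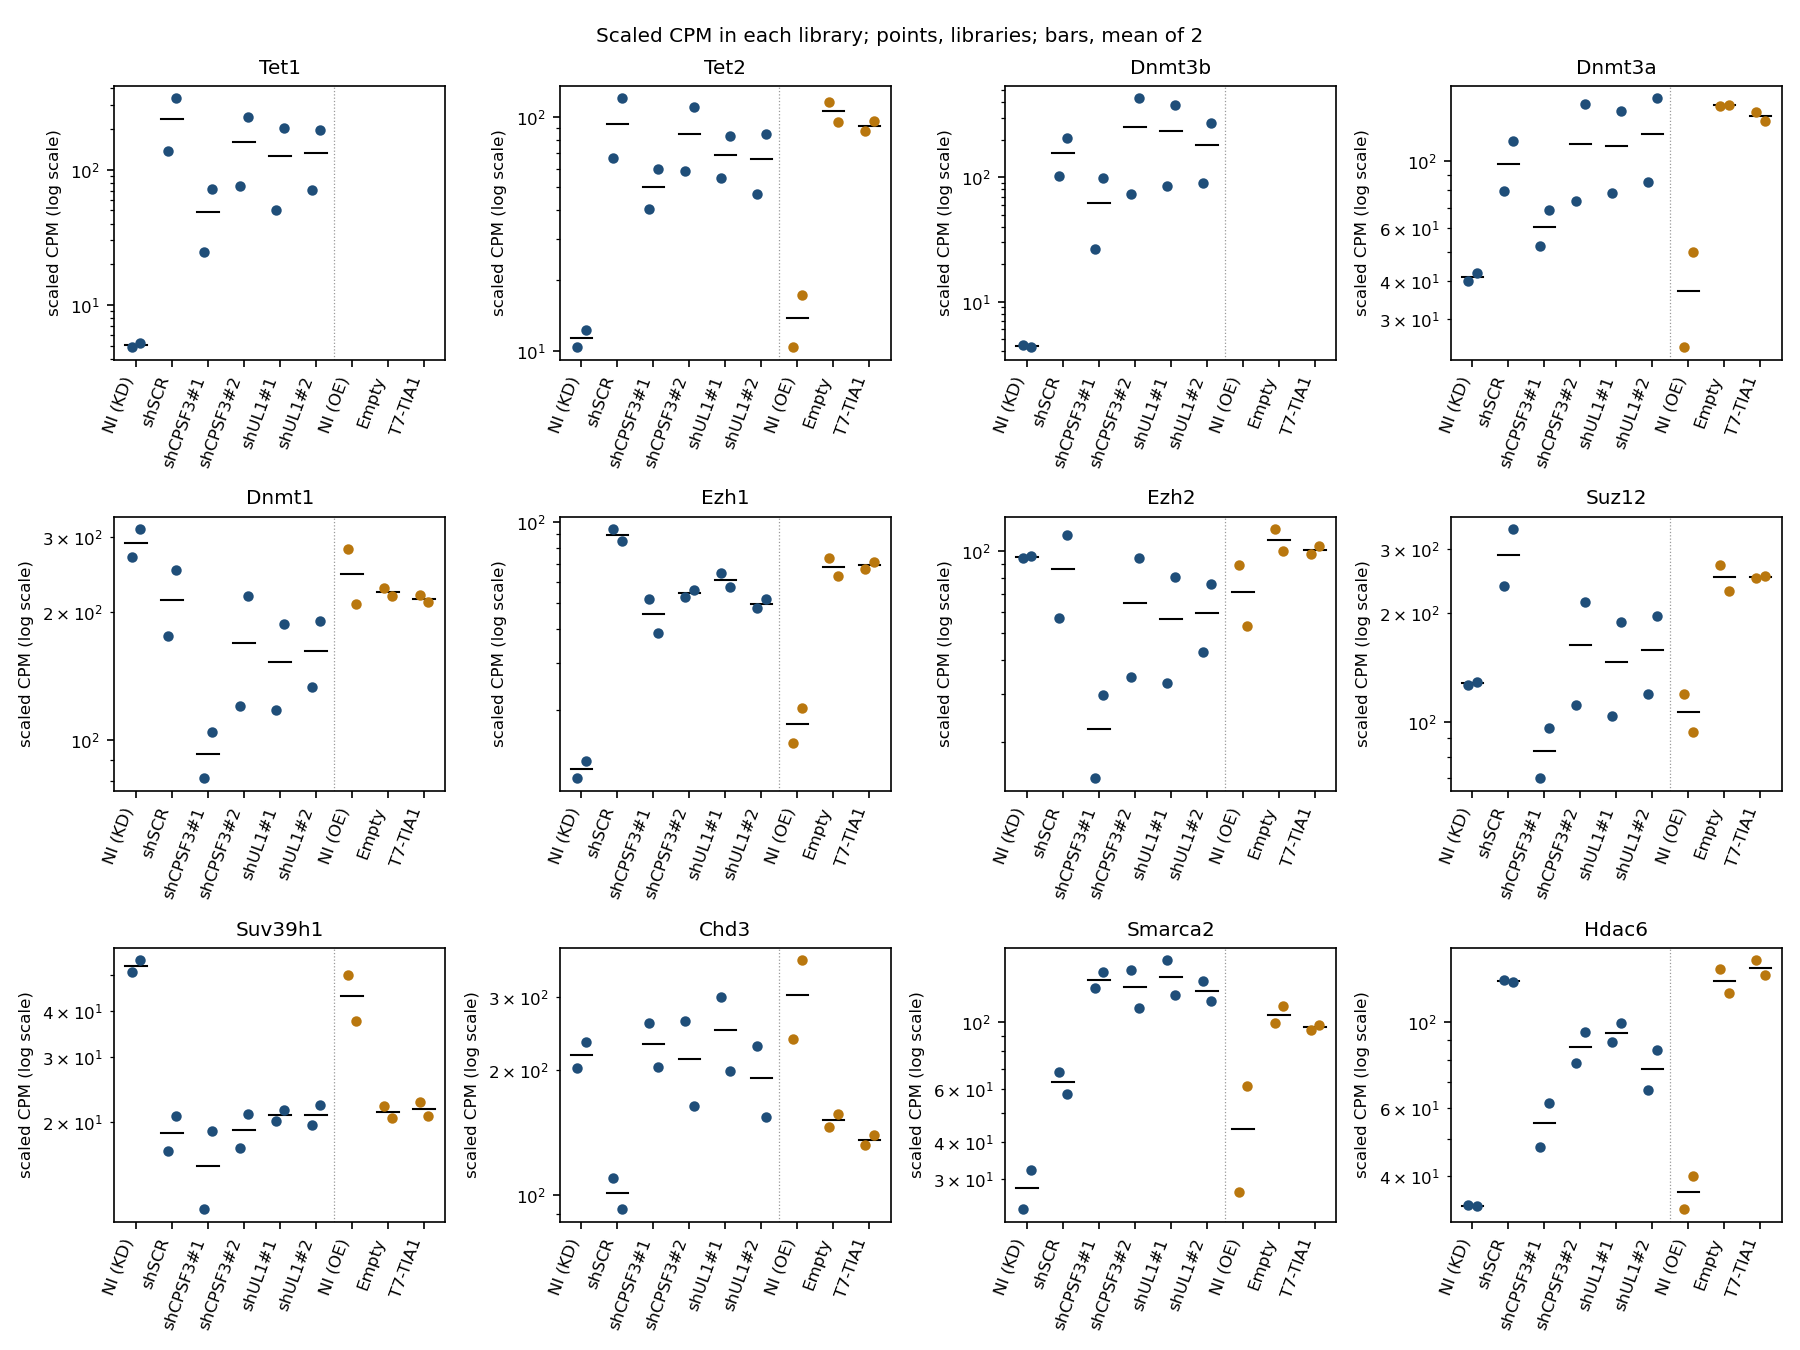
Scaled CPM (log axis) of selected chromatin genes in each library, grouped by condition on the x axis, with libraries as points and the mean of 2 as a bar; *Tet1* and *Dnmt3b* are not listed in the OE table. *Tet1*, *Dnmt3b*, and *Tet2* stand higher in shSCR than in NI, and the Empty and T7-TIA1 points lie close together.

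By the mean of both shRNAs against CPSF3, 12 members fell and 8 rose relative to shSCR (26.7% of 75), a share near the 26.1% of all genes (16.7% higher and 9.35% lower), with a median of -0.21 against 0.03. In the same comparison 3 of 3 listed macrophage markers and 7 of 15 fibroblast markers rose (median log2 differences 1.69 and 1.15), 4 of 4 listed epidermal markers fell (median -2.27), and 0 of 14 proliferation markers passed by limma (median -1.21), 3 of them with an unadjusted p under 0.05. The part of these in the member differences was not tested. *Suz12* fell from 238/339.7 in shSCR to 69.8/96.3 in shCPSF3#1 and 111/214 in shCPSF3#2 (log2 difference -1.33 ± 0.36 SE, adjusted p = 0.0294). *Kdm4c* stood at 48.4/59.0 and at 68.1/121 with these shRNAs (log2 difference -1.11 ± 0.35 SE, adjusted p = 0.0490), where the higher shCPSF3#2 library overlapped the shSCR libraries. *Setd6*, a methyltransferase gene, was at 23.9/33.7 in shSCR, 10.2/12.0 in shCPSF3#1, and 12.4/20.4 in shCPSF3#2 (log2 difference -1.04 ± 0.24 SE, adjusted p = 0.0171), and *Chd1l*, a remodeller of the DNA damage response, at 19.9/32.7, 10.2/9.57, and 13.2/22.0 (log2 difference -0.92 ± 0.26 SE, adjusted p = 0.0361). The other falls were those of *Hdac6* (-0.89), *Dot1l* (-0.85), *Ezh1* (-0.84), *Kmt5c* (-0.81), *Kdm4b* (-0.73), *Setd5* (-0.64), *Kdm3b* (-0.59), and *Chd2* (-0.56). *Chd3* was at 259.6/204 in shCPSF3#1 and 263/164 in shCPSF3#2, above both shSCR libraries (log2 difference 1.11 ± 0.26 SE, adjusted p = 0.0195), and *Smarca2* at 129/147 and 149/111 (log2 difference 1.07 ± 0.19 SE, adjusted p = 0.00690). *Smarcc2* was at 104/75.1 in shSCR, 165/169.6 in shCPSF3#1, and 159/133 in shCPSF3#2 (log2 difference 0.81 ± 0.16 SE, adjusted p = 0.0116), and *Setd1b*, an H3K4 methyltransferase gene, at 35.8/28.3, 44.6/45.0, and 45.9/50.2 (log2 difference 0.53 ± 0.11 SE, adjusted p = 0.0130). *Hdac10* (0.48), *Smarce1* (0.44), *Ehmt2* (0.42), and *Tet3* (0.40 ± 0.09) rose.

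With the replicate number as a block, 38 members passed for CPSF3. In a fit of shSCR and the 2 shCPSF3 groups alone 1 passed, the rise of *Smarca2*. With shCPSF3#1 alone 26 passed, 9 of them rises, and with shCPSF3#2 alone 3 passed, 2 of them the rises of *Setd1b* and *Smarca2*, while *Suz12*, *Kdm4c*, *Setd6*, and *Chd1l* did not pass with it (adjusted p = 0.248, 0.321, 0.132, and 0.319). Without shSCR replicate 2, 4 passed. After rescaling to equal sums 6 rose and 13 fell, and with median-of-ratios size factors 8 rose and 13 fell, while the share of all calls that were higher went from 64.1% to 55.5% and 53.4%. Of all 9435 genes 2107 passed after rescaling and 2418 with size factors. The shares of all genes under the block and the other fits are not given, so these counts are not read as particular to the members.

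Knockdown of hnRNP UL1 gave 7 rises and 4 falls among the members (14.7%), against 10.5% of all genes (7.31% higher and 3.15% lower). The median of the members was -0.11, against 0.00 over all genes, and 26 of 75 were above 0. With size factors the split was 6 rises and 6 falls, and of all calls 59.7% were higher in place of 69.9%. Of the listed markers 7 of 15 fibroblast markers rose (median log2 difference 1.03), and the macrophage (median 0.71), epidermal (median -1.50), and proliferation (median -0.54) markers did not pass. The part of these in the member differences was not tested. *Chd3* was at 301/199 in shUL1#1 and 229/155 in shUL1#2 (log2 difference 1.08 ± 0.26 SE, adjusted p = 0.0392) and *Smarca2* at 160.0/123 and 137/117 (log2 difference 1.07 ± 0.19 SE, adjusted p = 0.0139), in every case above both shSCR libraries. *Smarcc2* was at 182/141 and 138/125 (log2 difference 0.71 ± 0.16 SE, adjusted p = 0.0342), and *Setd1b* at 48.7/46.8 and 44.3/44.2 (log2 difference 0.51 ± 0.11 SE, adjusted p = 0.0274). *Tet3* (0.47 ± 0.09), *Smarce1* (0.47), and *Hdac10* (0.44) rose. *Smarca1*, an ISWI gene, was at 7.08/15.9 in shSCR, 23.6/39.0 in shUL1#1, and 40.1/42.6 in shUL1#2, all shUL1 libraries above shSCR, and did not pass without the replicate block (adjusted p = 0.0793), whereas with it *Smarca1* passed for both knockdowns. *Ezh1* fell from 93.7/84.8 in shSCR to 64.3/57.3 and 47.8/51.6 (log2 difference -0.69 ± 0.13 SE, adjusted p = 0.0204). *Kdm4b* was at 72.2/79.1 in shSCR, 51.6/49.7 in shUL1#1, and 41.0/50.04 in shUL1#2 (log2 difference -0.65 ± 0.16 SE, adjusted p = 0.0404). *Hdac6* was at 88.8/99.3 and 66.7/84.7 with shUL1 (log2 difference -0.60 ± 0.15 SE, adjusted p = 0.0404). *Chd2* fell from 128/138 to 91.1/95.8 and 93.1/101 (log2 difference -0.48 ± 0.11 SE, adjusted p = 0.0331). The block gave 25 calls, but the count was 7 after rescaling to equal sums, 4 and 5 with shUL1#1 and shUL1#2 alone, and 0 in a fit of shSCR and the shUL1 groups alone. Of all 9435 genes 836 passed after rescaling, and the shares of all genes under the other fits are not given. The number of members called was also counted with single libraries left out. It was 1 without shSCR replicate 1, shSCR replicate 2, or shUL1#1 replicate 1, 0 without shUL1#2 replicate 1, and 6 and 5 without shUL1#1 replicate 2 and shUL1#2 replicate 2.

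Both knockdown comparisons and shSCR against NI use the same 2 shSCR libraries, so that their values are given side by side and their likeness is not counted as a result. The knockdowns were also compared with each other directly, which does not involve shSCR. There 0 of 75 members passed by limma, against 0.0424% of all genes, and 4 members had an unadjusted p under 0.05. The knocked-down genes themselves did not pass there either. *Hnrnpul1* had a log2 difference of 1.199 ± 0.191 SE (adjusted p = 0.115), and *Cpsf3* of -0.705 ± 0.196 SE (adjusted p = 0.251). Among the members, the smallest p-values belonged to *Kdm5d*, *Setd3*, and *Hdac6* (adjusted p = 0.266, 0.334, and 0.370). *Kdm5d* was at 43.6/38.3 and 48.2/45.6 with the shCPSF3 shRNAs, and at 58.6/52.5 and 55.0/47.7 with the shUL1 shRNAs. A difference of the members between the knockdowns was not detectable with these libraries, whose standard errors on the log2 scale ranged from 0.06 to 0.75. Replicate 2 was above replicate 1 in all 5 day 12 groups for 36 of the 75 members and below it in all 5 for 9, and the proliferation markers were higher in replicate 2 in each of these groups. This count was not made over all genes, across which the same-numbered libraries of these groups also deviated together (r 0.674 to 0.949). The part of the replicate in the results was not tested beyond the blocked counts.

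T7-TIA1 left the chromatin genes without a call. By limma 0 of 74 members passed against Empty, as did 0% of all genes, with 0 members and 393 genes at an unadjusted p under 0.05. *Tia1* itself did not pass (log2 difference 2.71 ± 0.21 SE, adjusted p = 0.222). The smallest p-values among the members were those of *Kmt5a*, which monomethylates H4K20, at 115/111 in Empty and 153/133 in T7-TIA1, of *Kdm2b*, at 82.4/73.7 in Empty and 70.9/68.8 in T7-TIA1, and of *Setd1a*, at 44.0/42.3 in Empty and 49.4/46.8 in T7-TIA1 (adjusted p = 0.999 for each). The log2 differences of the members lay between -0.71 and 0.34, with standard errors from 0.09 to 0.52.

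Partner genes of the same pathways that do not carry these symbols were counted from lists of Polycomb, COMPASS, NuRD, Sin3, CoREST, and heterochromatin partners, other SWI/SNF subunits, INO80, SRCAP, and ISWI partners, histone acetyltransferases, and other methyltransferases. In shSCR against NI, 25 of 107 rose and 19 fell, which is 41.1% against 43.5% of all genes not under 5 scaled CPM in both NI libraries, and in Empty against NI 45 of 109 rose and 18 fell, which is 57.8% against 46.5%. *Jarid2*, a PRC2 cofactor, rose by 3.33 ± 0.69 in KD and 3.54 ± 0.16 in OE. *Rcor2*, a CoREST subunit, rose by 2.90 ± 0.69 in KD, and the PRC2 cofactor *Mtf2* (2.43 ± 0.14) and the SWI/SNF gene *Bicral* (2.04 ± 0.13) rose in OE. *Nsd2*, an H3K36 methyltransferase gene, fell in both (-2.13 ± 0.12 and -1.89 ± 0.21), as did the PRC1 gene *Bmi1* (-1.44 ± 0.14 and -1.09 ± 0.15), all as log2 differences ± SE. *Cbx7*, which reads methylated H3K27 in the PRC1 complex, was at 1.722/1.501 scaled CPM in NI and 120.8/159 in shSCR and, like *Dnmt3b*, was listed only through its day 12 libraries, so that it is not counted here. With shCPSF3, 5 partners rose and 9 fell against shSCR (13% against 26.1% of all genes), and with shUL1 2 rose and 3 fell (4.6% against 10.5%). *Bmi1* was higher in both (1.21 ± 0.13 and 0.80 ± 0.13), and Smyd3, a lysine methyltransferase gene, lower (-1.16 ± 0.18 and -0.91 ± 0.18). For shCPSF3 against shUL1 and for T7-TIA1 against Empty, 0 partners passed by limma.

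Splicing was measured as percent spliced in (PSI), the share of reads that include an exon, intron, or splice site variant. In KD, 859 member events in 74 genes had the reads needed for a test on inclusion over exclusion reads, and in OE 922 in 76 genes. At day 12 in shSCR, 93 member events in 45 genes differed from NI (10.8%), against 14.5% of all tested events. Cassette exons accounted for 45 of them, 38 with higher and 7 with lower inclusion, and retained introns for 37, 19 higher and 18 lower. Of all tested cassette exons 12.4% were higher and 6.44% lower, and of the members' 18.8% and 3.47%. The length was divisible by 3 in 17 of the 45 exons (37.8%), and in 44.9% of all called and 40.5% of all tested cassette exons. Leaving out either NI library left 38 member events, and leaving out shSCR replicate 1 or 2 left 51 or 53. In Empty against NI, 19 member events in 10 genes passed (2.06% against 2.76%), of which 5 belonged to *Dnmt3b*. With PSI in percent in place of the read ratio 0 member events passed, without NI replicate 1 there were 4, without Empty replicate 2 there were 41, and with the replicate block 50.

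By the criteria of a mean PSI difference of at least 10 and a gap of at least 5 between the libraries of both groups, which use no test, 44 member events differed in shSCR against NI (0.779% of member events and 1.22% of all covered events) and 30 in Empty against NI (0.529% and 0.679%). The widest of them in KD was a 17-nt exon of *Dnmt3b*, named after its values were seen, whose inclusion stood at 34.2/19.4% for the NI libraries and at 93.9/98.8% for those of shSCR. It did not pass the read-level test (adjusted p = 0.243), and the NI libraries held 6.2/2.7 inclusion and 11.8/11.3 exclusion reads. Among the member events called in shSCR against NI, the 111-nt exon of *Hdac7* had the widest difference. Its PSI was 12.8/12.2% in NI and 57.7/54.5% in shSCR (log2 difference in the read ratio 3.14 ± 0.24 SE, adjusted p = 2.37e-09), and 10.7/31.6% in NI and 43.2/51.1% in Empty (adjusted p = 0.140). Its inclusion was thus several times that of NI in both shSCR libraries, whereas the NI libraries of OE lay apart from each other.

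The 126-nt exon of *Ezh2* went the other way. Its PSI was 90.5/91.7% in NI and 54.3/68.9% in shSCR (log2 difference in the read ratio -2.56 ± 0.32 SE, adjusted p = 4.27e-06), and 100/97.8% in NI and 67.8/75.0% in Empty (log2 difference in the read ratio -4.44 ± 0.68 SE, adjusted p = 5.74e-04). The size in OE depends on the read added to each side, since the NI libraries there were at or near full inclusion. In both datasets the shSCR and Empty libraries lay below every NI library. The *Smarcb1* segment of 27 nt fell as well, from 55.0/55.0% to 24.9/19.4% in shSCR (log2 difference in the read ratio -2.10 ± 0.23 SE, adjusted p = 8.18e-07) and from 53.0/55.5% to 25.9/29.1% in Empty (log2 difference in the read ratio -1.64 ± 0.22 SE, adjusted p = 1.44e-04). The shorter form of its exon 2, which is the same choice counted from the other side, rose by about as much.

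A 91-nt exon of *Smarca2* at chr19:26749852-26749942, which no annotated transcript has with these ends, dropped from 43.3/39.7% in NI to 9.6/19.1% in shSCR (log2 difference in the read ratio -2.06 ± 0.31 SE, adjusted p = 4.82e-05). In OE it was at 55.6/30.1% in NI and 23.3/18.8% in Empty (adjusted p = 0.0650). The *Ehmt1* exon was at 73.7/70.7% in NI and 92.9/88.7% in shSCR (adjusted p = 2.12e-04), and at 77.1/82.8% in NI and 85.3/84.4% in Empty. The *Chd3* exon had 65.2/66.5% in NI and 83.5/87.0% in shSCR (adjusted p = 2.26e-04), and 64.5/66.5% in NI and 71.9/81.0% in Empty (adjusted p = 0.102). Inclusion of both exons was higher in shSCR than in NI, and in OE the libraries of the groups did not overlap, but neither exon passed there.

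Other member events of shSCR against NI with wide differences were neighbouring exons 8 and 9 of *Kdm7a*, of 88 and 107 nt. The 107-nt exon was at 57.7/52.9% in NI and 88.6/83.7% in shSCR (adjusted p = 0.00397), and the 88-nt exon at 61.7/47.1% and 88.3/81.4% (adjusted p = 0.00835). The NI libraries had the lowest accepted coverage score, with 27/30 reads for the 107-nt exon and 31/26 for the 88-nt exon. No annotated transcript skips either exon. An intron of *Kmt5b*, 6693 nt long, was retained at 10.7/8.5% in NI and 24.1/34.9% in shSCR (adjusted p = 0.0183). In OE the named events also held a 44-nt exon of *Chd2* at chr7:73447520-73447563, at 2.1/2.0% in NI and 21.4/17.7% in Empty (log2 difference in the read ratio 3.20 ± 0.53 SE, adjusted p = 0.00135). A 221-nt exon of *Setd5* (chr6:113105921-113106141) was at 45.8/55.8% and 74.5/72.0% (adjusted p = 0.00464), and an intron of *Kmt5c* of 331 nt at 52.4/38.5% and 26.8/26.1% (adjusted p = 0.0317). No annotated transcript includes these *Chd2* and *Setd5* exons with the same ends. In KD the *Setd5* exon passed as well, at 60.2/57.1% in NI and 72.2/75.6% in shSCR (adjusted p = 0.0102). The *Chd2* exon was at 1.6/0.6% in NI and 19.5/35.0% in shSCR and did not pass there (adjusted p = 0.063). A pair of 3′ splice sites of *Chd3*, 3 nt apart, exchanged usage, the upstream site, which makes the exon longer, at 62.3/64.9% in NI and 98.8/86.3% in Empty (adjusted p = 0.0465). In KD the libraries of NI and shSCR overlapped for this site (78.0/60.1% and 89.7/74.2%) and for the *Kmt5c* intron (36.8/49.2% and 41.8/31.2%).

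**Figure D4:**
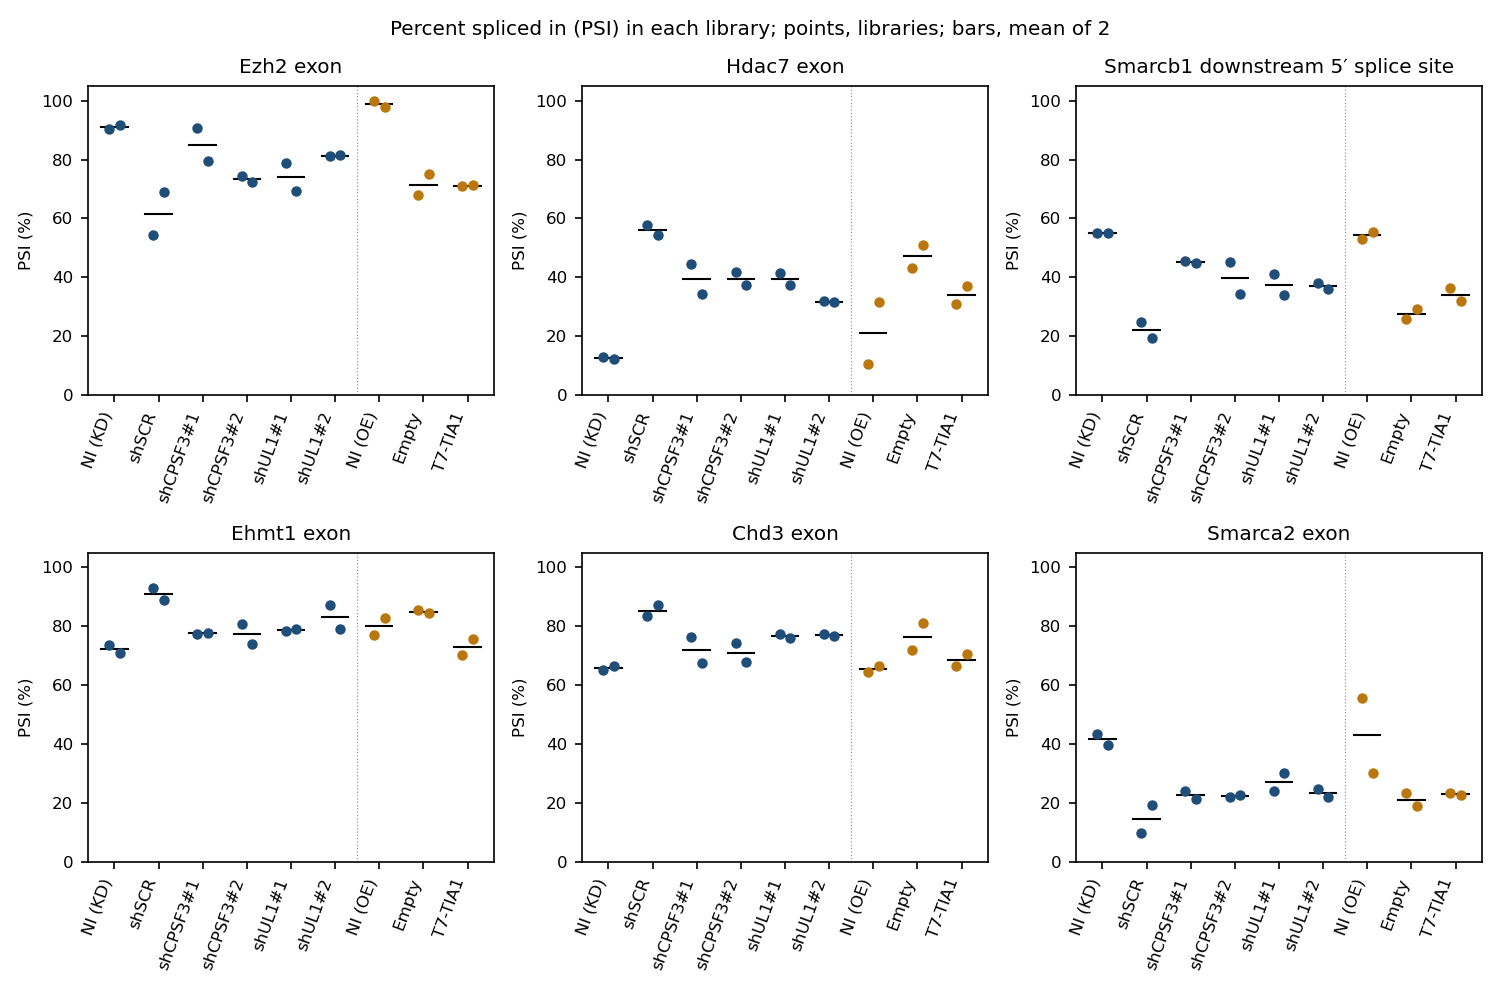
PSI in percent of the alternative segments of chromatin genes in each library, grouped by condition on the x axis, with libraries as points and the mean of 2 as a bar. The *Ezh2* and *Smarcb1* segments stand lower in shSCR and Empty than in their NI libraries, and the *Hdac7* exon is higher in shSCR than in NI.

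Under CPSF3 knockdown, 39 member events in 22 genes differed from shSCR (4.54% against 7.9% of all tested events), 13 higher and 26 lower, and under hnRNP UL1 knockdown 25 in 18 genes (2.91% against 4.39%), 10 higher and 15 lower. Of the cassette exons, 2 were higher and 14 lower with shCPSF3, and 3 higher and 8 lower with shUL1. Over all genes, 44.1% of the called cassette exons were higher and 55.9% lower with shCPSF3, and 47.5% and 52.5% with shUL1. As shares of the tested cassette exons, 6.93% of the members' were lower with shCPSF3, near the 6.52% of all. With shUL1 these shares were 3.96% and 4.06%. The higher exons were the smaller share among the members, 0.99% against 5.14% with shCPSF3 and 1.49% against 3.66% with shUL1. The *Hdac7* exon was at 44.4/34.3% in shCPSF3#1, 41.7/37.3% in shCPSF3#2, 41.6/37.5% in shUL1#1, and 31.8/31.6% in shUL1#2, below both shSCR libraries each time (log2 difference in the read ratio -0.98 ± 0.20 SE, adjusted p = 0.00223 for CPSF3; log2 difference in the read ratio -1.21 ± 0.20 SE, adjusted p = 5.16e-04 for hnRNP UL1). The *Smarcb1* segment was at 45.5/45.0% and 45.3/34.3% with shCPSF3 (log2 difference in the read ratio 1.37 ± 0.21 SE, adjusted p = 1.18e-04) and at 41.0/34.0% and 38.0/35.9% with shUL1 (log2 difference in the read ratio 1.06 ± 0.21 SE, adjusted p = 0.00261), above both shSCR libraries. The *Ezh2* exon had PSI values of 90.7/79.5% and 74.5/72.5% with shCPSF3 (adjusted p = 0.0278) and of 79/69.4% and 81.2/81.5% with shUL1 (adjusted p = 0.0318). These 8 libraries all lay above the shSCR libraries for the *Ezh2* exon, the closest by 0.47 of PSI. The *Ehmt1* exon was lower than in shSCR, at 77.2/77.8% and 80.6/73.8% with shCPSF3 (adjusted p = 0.00142) and 78.2/78.9% and 87.0/78.9% with shUL1 (adjusted p = 0.0146), and so was the *Chd3* exon with shCPSF3, at 76.4/67.3% and 74.1/67.7% (log2 difference in the read ratio -1.17 ± 0.24 SE, adjusted p = 0.00249).

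Introns were also among the events with the widest differences from shSCR. The *Kmt5b* intron was at 9.1/7.2% in shCPSF3#1 and 8.8/20.7% in shCPSF3#2 (adjusted p = 0.0109). An 878-nt intron of *Smarcc2* was at 30.4/32.8% in shSCR, and at 19.3/16.3% and 16.1/18% with shCPSF3 (adjusted p = 0.00234) and 19.3/18.6% and 17.7/19.2% with shUL1 (adjusted p = 0.0104). A 983-nt intron of *Chd3* was at 48.2/44.2% in shSCR and 32.5/28.9% and 32.7/33.4% with shCPSF3 (adjusted p = 0.0178). These 3 introns were retained less than in shSCR, whereas an 856-nt intron of *Chd9* was retained more with shUL1, at 71.5/63.6% and 71.7/56.1% against 50.2/48.2% (adjusted p = 0.0450). At a 5′ splice site of *Chd3*, use of the form with 46 more nt was 29.3/30.6% in shSCR and 16.6/13.3% and 16.1/18.4% with shUL1 (adjusted p = 0.0215).

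By the PSI criteria, 19 member events differed for CPSF3 (0.325% of member events and 0.428% of all covered events) and 14 for hnRNP UL1 (0.238% and 0.368%). With the replicate block the read-level counts were 60 for CPSF3 and 46 for hnRNP UL1, and with PSI in percent 20 and 10. Without shSCR replicate 1 they were 11 and 5, without shSCR replicate 2 17 and 13, without replicate 1 of shCPSF3#1 or of shCPSF3#2 24, and without shUL1#2 replicate 1 13. Between the knockdowns 0 member events passed by limma, against 0.0172% of all tested events, and 28 had an unadjusted p under 0.05.

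For T7-TIA1 against Empty, 0 member events passed the read-level test by limma (0.094% of all tested events did), and 49 had an unadjusted p under 0.05. Under the fit with the replicate block 6 passed, without T7-TIA1 replicate 2 there were 2, and without Empty replicate 1 there was 1. The PSI criteria were met by 11 (0.186% of member events and 0.342% of all covered events). The *Ehmt1* exon was at 85.3/84.4% in Empty and 70.2/75.6% in T7-TIA1 (adjusted p = 0.309), and the *Hdac7* exon at 43.2/51.1% and 31.0/37.0% (adjusted p = 1.00). A *Kmt5a* form with 4 more nt at a 5′ splice site was at 86.2/85.2% and 60.8/58.6% (adjusted p = 0.804). Forms of *Chd1*, with 159 more nt at a 5′ splice site (71.3/76.3% and 95.8/87.7%), and of *Kmt2d*, at a 3′ splice site (73.9/85.5% and 93.2/97.1% for the longer form), met the criteria without enough reads for the test. The *Ezh2* exon, at 71.0/71.2% in T7-TIA1, and the *Smarcb1* segment, at 36.2/31.8%, did not meet them.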

How the data were processed

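RNA from 18 libraries in 9 groups of 2 had been sequenced with a stranded polyA protocol. Groups and replicate numbers came from the titles of the libraries, and for shUL1#2 and the OE NI libraries the day in another field of the labels differs from the title. Members and gene lists were chosen with earlier results of these data known.

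The authors mapped reads to mm10 with STAR 2.7.1a and obtained CPM with edgeR 3.16.5. The deposited expression values are a signal: CPM relative to a scaled library size, whose sums differ between libraries. All values were whole multiples of a step (tolerance 0.1 of a step), against 22.9% to 24.4% for a step 5% larger. The step was taken as 1 read to derive depth, and since the smallest values are many steps wide, the read totals are derived values. Each listed gene reaches 5 scaled CPM in at least 9 of 12 KD or all 6 OE libraries, so that a gene high in fewer libraries could not be listed. The authors quantified splicing with vast-tools, and the deposited PSI values are in percent, with coverage scores and reads.

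For expression, limma 3.58.1 (trend option, R 4.3.3) was fitted to log2(scaled CPM + 1) with every group of a table together, with Benjamini-Hochberg adjustment across the listed genes. Fold changes on this scale understate those of low genes. For CPSF3 and hnRNP UL1, both shRNAs were averaged before shSCR was subtracted. Events needed a score of VLOW (10 reads) or better in every library and a mean of 5 reads on each side. They were tested with limma (trend, robust) on the log2 ratio of inclusion to exclusion reads after adding 1 read on each side, with the inverse of counting variance plus 0.04 as weight, adjusted over all tested events. Adjusted p-values are two-sided and were called under 0.05. Python 3.11.15 served for counts and figures (matplotlib 3.10.9, pandas 2.3.3, NumPy 2.4.6). Both tests were tested on simulated data. Depth limits low-coverage events most, and the PSI criteria take no account of it.

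Genes named with values per library were up to 4 members with the largest rise and 4 with the largest fall that passed in a comparison, the 3 smallest p-values where fewer than 3 were called, and a fixed set of genes whatever they did. For the fixed set, values in the knockdown and T7-TIA1 libraries are given only in part. Named events were the 8 widest called ones per comparison, or those meeting the PSI criteria where none was called. Coordinates and sequences are from mm10 (GRCm38), with GENCODE transcripts. Same-numbered libraries of the day 12 KD groups deviated together (r across genes 0.674 to 0.949), those of NI and the day 12 KD groups did not (-0.127 to 0.0218), and in OE r was 0.171 to 0.308. The labels do not say what a number marks. The alternatives were other scalings, pseudocounts and filters, a replicate block, single shRNAs, only the groups compared, and leaving out each library.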

Additional observations from a re-analysis of the deposited data

Results flagged for a closer look

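In 6 splicing events of chromatin genes, every library moved one way in shSCR against NI and every library the other way in Empty against NI. They were found among the member events that passed or met the PSI criteria in any comparison. The same count over all events was not made, so no excess over other events is claimed. The difference between the datasets was not tested. For an exon of *Kdm5a* the mean PSI difference was -15.8 in KD, where NI was at 38.4/53.5% and shSCR at 25.0/35.4%, and 2.6 in OE, where NI was at 35.9/36.2% and Empty at 39.9/37.5%. For introns, it was 5.0 in KD and -8.1 in OE for *Ezh1*, 1.9 and -10.3 for *Kmt5c*, -6.3 and 2.7 for *Kmt2e*, 2.4 and -4.7 for *Kdm3a*, and 1.2 and -0.4 for *Chd4*. The *Kmt5c* intron was at 5.6% in both KD NI libraries and at 15.3/15.6% in the OE NI libraries, whereas shSCR (7.9/7.0%) and Empty (5.1% in both) were closer. *Ezh1* rests on few intron reads in the NI libraries, 0.5 to 5.9.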

How the results depend on the processing

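The named genes gave 545 alternative values, of which 422 kept direction and call, 123 kept the direction without passing, and 0 reversed, and the named events gave 286, of which 226, 60, and 0 did so. Of the named results, 15 of 43 for genes and 9 of 32 for events kept their call under every alternative run. The count test planned on whole reads was not run, since the reads are derived from the step between values. At 2 libraries per group the counts of members called depended on single libraries. Leaving out each in turn gave 29 to 39 (shSCR against NI), 4 to 25 (CPSF3), 0 to 6 (hnRNP UL1), and 25 to 58 (Empty against NI), and 0 for shCPSF3 against shUL1 and for T7-TIA1. In the same order the member events called were 38 to 53, 11 to 35, 5 to 18, and 4 to 41, with 0 between the knockdowns and 0 to 2 for T7-TIA1. The cause was not tested.

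The replicate block changed the members called to 38 (CPSF3) and 25 (hnRNP UL1), against 53 (shSCR) and 48 (Empty), with 0 for the other comparisons. Member events with the block were 131 for shSCR, 60 for CPSF3, 46 for hnRNP UL1, 0 between the knockdowns, 50 for Empty, and 6 for T7-TIA1. In Empty against NI the block ended the call of *Setd2* and added *Kdm6b*, and it ended no other member's expression call in any comparison and no call of a named event. With only the groups compared, which leaves fewer libraries to estimate the spread, 1 (CPSF3) and 0 (hnRNP UL1) members passed. Single shRNAs gave 3 for shCPSF3#2, 4 for shUL1#1, and 5 for shUL1#2, and rescaling to equal sums gave 7 for hnRNP UL1. The counts of this paragraph stand without the shares of all genes or events under the same fits. PSI in percent gave 20 events for CPSF3, 10 for hnRNP UL1, and 0 for Empty. Under the PSI criteria, a minimum of 15 left 16 (shSCR), 7 (CPSF3), 5 (hnRNP UL1), and 6 (T7-TIA1) events, no gap gave 43 (CPSF3), 39 (hnRNP UL1), and 27 (T7-TIA1), and a score of LOW or better left 6 for T7-TIA1. With 1 library per group, so that no gap within groups can be seen, they were met by 78 to 93 (shSCR), 51 to 54 (CPSF3), 42 to 64 (hnRNP UL1), 66 to 111 (Empty), and 36 to 60 (T7-TIA1).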
